A study of Mus musculus with 3 samples.

Results

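Described here are 10 genes of the cold and heat stress responses in the intestine of mouse pups, out of 21983 genes counted. They were chosen by symbol. Cirbp and Rbm3 encode the cold-inducible RNA-binding proteins, and Hsph1, Hspa8, Hspa1a, Hspa1b, Dnajb1, Hsp90aa1, Hspb1 and Hspd1 encode molecular chaperones. All 10 had counts in every library. The pups, of WT genotype, fell into 3 groups with 1 library each. The pups behind the PCI34051+NEC library went through a necrotizing enterocolitis (NEC) regimen, which models an inflammatory bowel disease of newborns, and were also given PCI34051, a selective HDAC8 inhibitor, at 10 mg/kg a day over 5 days. Those behind the NEC library had the same regimen with PBS. In the model, pups received 40 µl of 33% Esbilac formula at 4 h intervals, and at 12 h intervals they breathed 99.9% nitrogen for 100 s and were then kept at 4 °C for 10 min. The control library came from pups left with the dam and given PBS, with neither hypoxia nor cold. Tissue was taken after 96 h. The cold was thus shared by the PCI34051+NEC and NEC libraries and absent from the control, always together with formula and hypoxia, so their parts cannot be told apart. The sources used here do not give the strain, the segment of intestine, the number of pups behind a library or the time between the last cold spell and sampling. The column taken as PCI34051+NEC has a name that only partly matches that sample's label, and every PCI34051+NEC value rests on that match.

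With 1 library per group there was no replicated test, so no p-value is given and each difference describes these libraries. Total counts were 16497580, 10650638 and 15076413 in the PCI34051+NEC, NEC and control libraries. Levels are in CPM, counts scaled to library size, after TMM scaling. Ratios of CPM carry 95% intervals that cover counting error only. A gene was measured in a comparison at 1 CPM or more in either library. It was set down as higher or lower when log2(CPM + 1) differed by at least 2-fold, a scale that understates the difference of low genes. The libraries also differed in makeup. Mitochondrially encoded genes took 3.73%, 32.4% and 4.88% of counts in the PCI34051+NEC, NEC and control libraries. The 12 smooth muscle markers summed to 1868, 13970 and 2093 CPM, and the 11 epithelial markers to 7726, 3432 and 7257 CPM. The epithelial markers did not move together: in NEC against control, 5 were past 2-fold downward, among them Epcam at 404 and 2731 CPM, and 3 upward, with Krt19 at 638 and 54.2 CPM, Krt20 at 54.8 and 15.9 CPM and Cldn3 at 155 and 57.5 CPM. No marker of either list was at 0 in any library. Counts of the Y-linked gene Eif2s3y were 1134, 0 and 999, so that the sex of the pups and the NEC group cannot be told apart. In bulk tissue, fewer cells of a type and less RNA per cell cannot be told apart either.

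Cells meet heat and cold with different sets of proteins. On heat or other damage to proteins, the transcription factor HSF1 binds heat shock elements in promoters and switches on chaperones, which hold, refold or hand on unfolded proteins: the small heat shock proteins hold them, the HSP70 proteins refold them with help from HSP40 and HSP110 partners, and HSP90 finishes signalling proteins. On mild cooling, most transcription slows while CIRBP and RBM3, a pair of small proteins with an RNA recognition motif and a glycine-rich tail, accumulate and bind messenger RNAs. In gut epithelium, the mouse small heat shock protein HSP25, encoded by Hspb1, and the inducible HSP70 are known as protectors against injury.

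Promoter sequences are shown for 4 members because they hold the elements through which heat and mild cold are known to act, and because they show how alike the inducible HSP70 genes are. Of the 10 genes, 7 matched RefSeq promoter windows on GRCm38.p6, each reaching from 250 bases before to 50 after a transcription start. Rbm3, Hspa8 and Hsp90aa1 had no window and were not searched for motifs. Only bases before the start are shown, without those in annotated exons. Capitals mark a pair of heat shock units, written GAANNTTC or TTCNNGAA, each of which reads the same on both strands, and the mild cold response element described at Cirp, TCCCCGCC, or GGCGGGGA on the other strand. The motifs do not overlap one another in these stretches.
Hspa1a, chr17:34972157-34972406, minus strand: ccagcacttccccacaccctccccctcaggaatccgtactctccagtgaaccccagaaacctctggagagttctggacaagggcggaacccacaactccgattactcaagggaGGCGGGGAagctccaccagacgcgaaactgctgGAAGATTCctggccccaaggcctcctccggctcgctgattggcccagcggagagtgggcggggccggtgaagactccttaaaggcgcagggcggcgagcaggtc
Hspa1b, chr17:34959239-34959488, minus strand: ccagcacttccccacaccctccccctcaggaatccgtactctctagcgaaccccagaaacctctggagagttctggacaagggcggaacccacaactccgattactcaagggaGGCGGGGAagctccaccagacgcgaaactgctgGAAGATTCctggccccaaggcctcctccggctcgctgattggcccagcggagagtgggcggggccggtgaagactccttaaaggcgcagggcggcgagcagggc
Hspb1, chr5:135887669-135887918, plus strand: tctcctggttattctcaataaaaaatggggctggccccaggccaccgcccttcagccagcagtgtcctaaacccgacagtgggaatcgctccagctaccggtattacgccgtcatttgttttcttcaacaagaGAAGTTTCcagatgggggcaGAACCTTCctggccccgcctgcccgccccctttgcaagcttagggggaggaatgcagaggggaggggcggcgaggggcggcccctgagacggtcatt
Cirbp, chr10:80167589-80167777, plus strand: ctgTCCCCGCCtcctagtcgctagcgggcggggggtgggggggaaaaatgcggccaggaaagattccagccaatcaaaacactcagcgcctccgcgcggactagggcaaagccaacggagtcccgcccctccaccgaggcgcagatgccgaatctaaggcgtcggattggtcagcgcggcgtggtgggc

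The Hspa1a and Hspa1b promoters were identical at 247 of 250 positions (98.8%), with the heat shock pair opening at position -104 from the start and the cold element at -137 in both. In Hspb1 the pairs opened at -117 and -97. Cirbp had 2 windows: in the one printed the cold element opened at -247, and the other, with its start at 80168171, had none. Heat shock pairs were found in windows of 5 of the 7 genes, Hsph1, Hspa1a, Hspa1b, Hspb1 and Hspd1, against 17.0% of the 27025 genes with windows. At Hsph1 and Hspd1 there were 3 alternating units, against 0.662% of genes, in stretches that lie in annotated exons and are not printed. The cold element was found in windows of 4 of the 7, Cirbp, Hspa1a, Hspa1b and, after the start, Dnajb1, against 6.19% of genes. Rbm3 was not among the genes searched. Hspa1a and Hspa1b, as near copies, are not separate matches for either motif. The 7 genes had 11 windows and the 27025 genes 32851, so the shares are not strictly alike. These matches describe letters in a window and not binding. The transcripts of Hspa1a and Hspa1b are hard to tell apart by sequence. In the values below, the intervals of their ratios overlapped in each comparison between libraries.

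How far each count can be read depended on such copies. Over the longest protein-coding transcript of each member in GENCODE M21, the share of 150-base windows, the length of a read, that also occurred in a transcript of another annotated gene was computed. No window of Cirbp, Hsph1 or Dnajb1 was shared, and 2.42% of those of Rbm3. The share was 56.0% for Hspa8, 46.0% for Hspa1a, 40.5% for Hspa1b, 36.6% for Hspb1, 36.2% for Hsp90aa1 and 18.6% for Hspd1. The matches included Hsp25-ps1 for Hspb1 and Hspd1-ps3 for Hspd1, while Hspa1a and Hspa1b matched each other in 1074 windows. The open reading frames of Hspa1a and Hspa1b were 99.4% identical, and the stretches after them 48.1%. The sources used here do not say how reads matching several genes were counted, and the part of shared windows in the levels of these 6 genes was not tested.

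**Figure D1:**
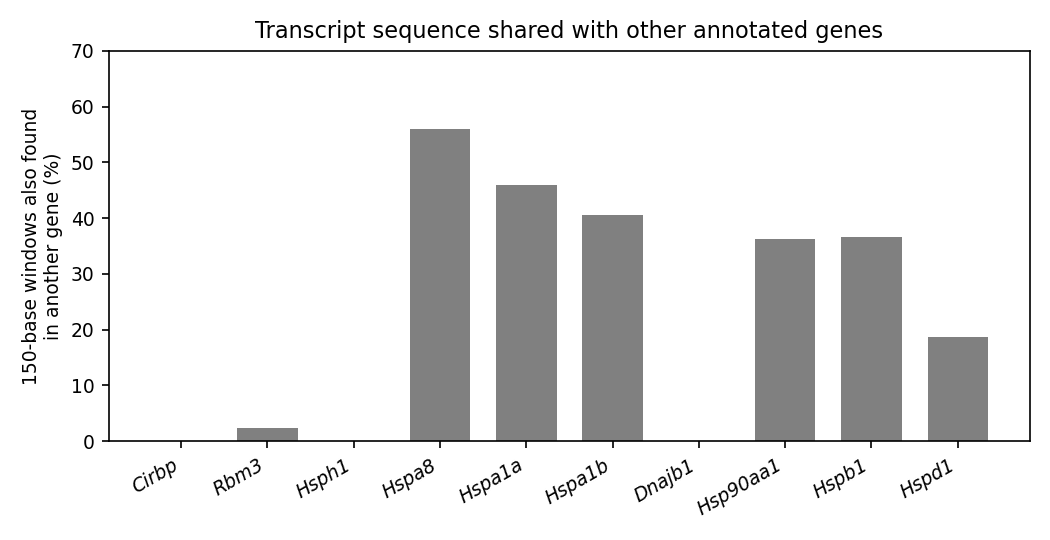
Share of 150-base windows of each member's longest protein-coding transcript (vertical axis, %) that also occur in a transcript of another annotated gene. The bars reach 56.0% for Hspa8 and are at 0 for Cirbp, Hsph1 and Dnajb1.

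The cold-inducible pair bears most directly on the cold in the regimen. Cirbp (ENSMUSG00000045193.13, chromosome 10, 80165985 to 80172786, plus strand, mm10, protein-coding) stood at 159 CPM in the PCI34051+NEC library (2413 counts), 86.8 CPM in the NEC library (950 counts) and 95.4 CPM in the control library (1517 counts). The 2 libraries from cold-exposed pups thus lay on either side of the control. Cirbp was 1.83 times as high in PCI34051+NEC as in NEC (1.69 to 1.97) and 1.66 times as high as in control (1.56 to 1.77). The NEC level was 0.909 times the control level (0.837 to 0.986). None of these reached 2-fold, and none of the 3 intervals included 1. Of all measured genes, 11.8% had a higher fold than Cirbp between PCI34051+NEC and control.

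Rbm3, on the X chromosome (ENSMUSG00000031167.16, 8138975 to 8145880, minus strand, protein-coding), had the wider range. It stood at 64.1 CPM in the PCI34051+NEC library (976 counts), 14.2 CPM in the NEC library (156 counts) and 52.0 CPM in the control library (827 counts). The NEC library was the low one, and the PCI34051+NEC and control libraries lay close together. Rbm3 was 3.65-fold lower in NEC than in control (3.07 to 4.36), a log2 fold of -1.80, and 7.53% of measured genes had a lower fold. In PCI34051+NEC, Rbm3 was 4.50-fold higher than in NEC (3.80 to 5.36), a log2 fold of 2.09. It was 1.23 times as high in PCI34051+NEC as in control (1.12 to 1.35). Once a trend over GC content and transcript length was taken out, the log2 folds were -1.35 for NEC over control and 1.59 for PCI34051+NEC over NEC.

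Counts of Rbm3 per count of Cirbp, a measure free of library scaling, were 0.404 in the PCI34051+NEC library (0.375 to 0.436), 0.164 in the NEC library (0.138 to 0.195) and 0.545 in the control library (0.500 to 0.594). The paired genes did not keep one proportion, and the NEC library stood apart. In Rbm3, 94 exonic bases overlap the antisense gene Rbm3os, whose reads cannot be told apart without a stated strand setting. The part of sex in the Rbm3 difference cannot be told apart from the group, since Rbm3 is X-linked and the Eif2s3y counts given above were 0 in the NEC library.

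**Figure D2:**
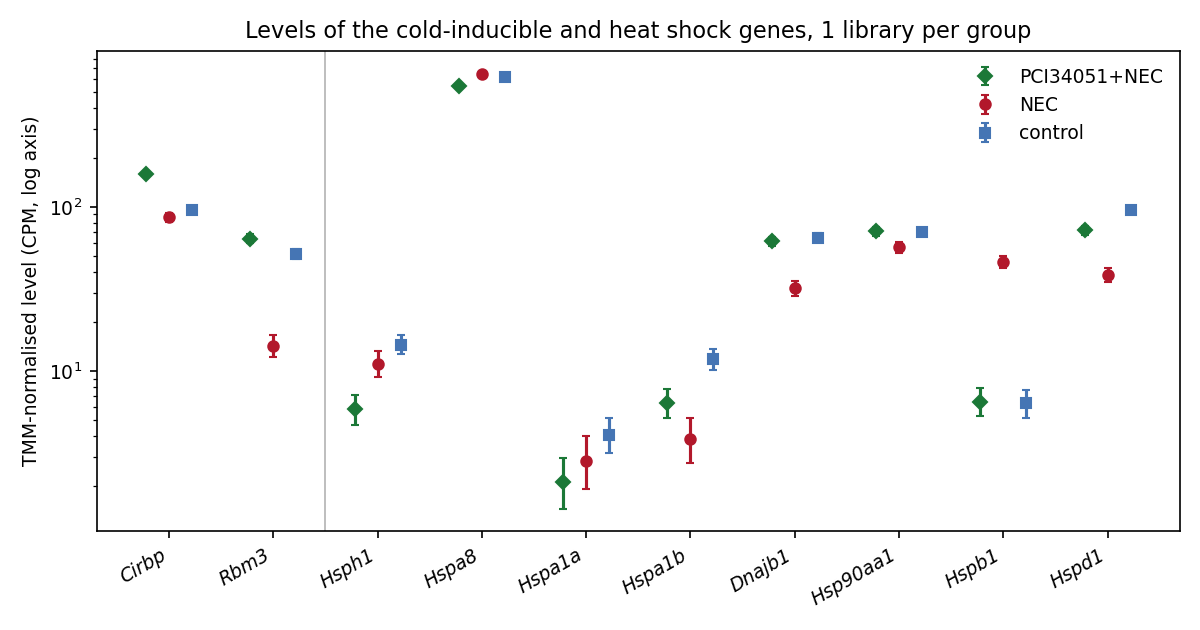
TMM-normalised level (CPM, log axis) of the 10 genes in the PCI34051+NEC, NEC and control libraries, with 95% Poisson intervals of the count. In the NEC library Rbm3 was low, at 14.2 CPM, and Hspb1 high, at 46.1 CPM, relative to the 2 others.

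Among the chaperones, the HSP70 machine includes a constant and an inducible part. Hspa8 (ENSMUSG00000015656.17, chromosome 9, 40800984 to 40810087, plus strand) encodes the constitutive HSC70, which folds new proteins and strips clathrin from vesicles. It stood at 547 CPM in the PCI34051+NEC library (8320 counts), 644 CPM in the NEC library (7048 counts) and 617 CPM in the control library (9811 counts), the highest level of the 10 genes in each. The libraries differed little: the ratio was 1.04 for NEC over control (1.01 to 1.08), 0.849 for PCI34051+NEC over NEC (0.823 to 0.877) and 0.885 for PCI34051+NEC over control (0.860 to 0.912). By rank among all genes, Hspa8 was number 215, 68 and 150 in the PCI34051+NEC, NEC and control libraries. Its exons overlap 262 bases of the small nucleolar RNA genes Snord14c, Snord14d and Snord14e on the same strand.

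The inducible HSP70 genes had few counts. Hspa1b (ENSMUSG00000090877.3, chromosome 17, 34956436 to 34959238, minus strand) stood at 6.37 CPM in the PCI34051+NEC library (97 counts), 3.84 CPM in the NEC library (42 counts) and 11.8 CPM in the control library (188 counts). Hspa1a (ENSMUSG00000091971.3, chromosome 17, 34969190 to 34972156, minus strand) stood at 2.10 CPM (32 counts), 2.83 CPM (31 counts) and 4.09 CPM (65 counts) in the PCI34051+NEC, NEC and control libraries. For both genes the control library was the highest of the 3. Hspa1b was 3.08-fold lower in NEC than in control (2.20 to 4.42) and 1.86-fold lower in PCI34051+NEC than in control (1.45 to 2.40). Hspa1a was 1.44-fold lower in NEC than in control, with an interval from 0.928 to 2.29 that spans 1, and 1.95-fold lower in PCI34051+NEC (1.26 to 3.07). Its log2 fold for NEC over control, -0.41, was -1.02 once a trend over GC content and length was taken out, and that for PCI34051+NEC over control, -0.71, was -1.11 after thinning to the lowest total.

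Reads that match both copies may have been given to either or left out, so the copies were also summed. If such reads were left out, the sum misses them too. Together they held 8.47 CPM in the PCI34051+NEC library (129 counts), 6.67 CPM in the NEC library (73 counts) and 15.9 CPM in the control library (253 counts). The sum was 2.39-fold lower in NEC than in control (1.83 to 3.14) and 1.88-fold lower in PCI34051+NEC than in control (1.51 to 2.34). PCI34051+NEC over NEC gave a ratio of 1.27, with an interval from 0.947 to 1.72 that spans 1. The count of Hspa1b per count of Hspa1a was 3.03 in the PCI34051+NEC library (2.01 to 4.67), 1.35 in the NEC library (0.832 to 2.23) and 2.89 in the control library (2.17 to 3.90). In Hspa1a, 564 exonic bases overlap the opposite-strand gene Gm20481.

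The partners of HSP70 differed from each other. Dnajb1 (ENSMUSG00000005483.10, chromosome 8, 83608193 to 83612653, plus strand) encodes the HSP40 protein that stimulates the HSP70 ATPase. It stood at 61.8 CPM in the PCI34051+NEC library (941 counts), 31.9 CPM in the NEC library (349 counts) and 65.0 CPM in the control library (1033 counts), so that the NEC library alone was low. Dnajb1 was 2.04-fold lower in NEC than in control (1.80 to 2.31). That lies at the 2-fold line, with a log2 fold of -1.01, and 4 alternatives put it short of the line, at -0.99 with DESeq2 size factors, -0.99 after thinning to the lowest total, -0.94 with a pseudocount of 4 and -0.81 once a trend over GC content and length was taken out. PCI34051+NEC over NEC gave a ratio of 1.94 (1.71 to 2.20), and PCI34051+NEC over control a ratio of 0.951 (0.870 to 1.04). Counts of Dnajb1 per count of Hspa8 were 0.113 in the PCI34051+NEC library, 0.0495 in the NEC library and 0.105 in the control library.

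Hsph1 (ENSMUSG00000029657.15, chromosome 5, 149614287 to 149636376, minus strand) encodes HSP110, which frees HSP70 from its nucleotide and keeps unfolded proteins soluble. It stood at 5.85 CPM in the PCI34051+NEC library (89 counts), 11.1 CPM in the NEC library (121 counts) and 14.5 CPM in the control library (230 counts). The PCI34051+NEC library was the low one, as it also was for Hspa8 by smaller folds. For Hspa1a, PCI34051+NEC over NEC gave a ratio of 0.743, with an interval from 0.439 to 1.26 that spans 1. Hsph1 was 2.48-fold lower in PCI34051+NEC than in control (1.93 to 3.20), a log2 fold of -1.18, and 4.24% of measured genes had a lower fold. With a pseudocount of 4 the log2 fold was -0.91, short of 2-fold. It was 1.89-fold lower in PCI34051+NEC than in NEC (1.43 to 2.51) and 1.31-fold lower in NEC than in control (1.05 to 1.65).

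Hsp90aa1 (ENSMUSG00000021270.13, chromosome 12, 110690605 to 110702728, minus strand) encodes the stress-inducible HSP90 alpha. It stood at 71.0 CPM in the PCI34051+NEC library (1081 counts), 56.8 CPM in the NEC library (622 counts) and 70.3 CPM in the control library (1118 counts). The ratio was 0.808 for NEC over control (0.731 to 0.892), 1.25 for PCI34051+NEC over NEC (1.13 to 1.38) and 1.01 for PCI34051+NEC over control (0.928 to 1.10). Once the GC and length trend was taken out, the first log2 fold, -0.30, became 0.08, and the second, 0.32, became -0.06. The constitutive HSP90 beta gene Hsp90ab1 held 8.49 counts per count of Hsp90aa1 in the PCI34051+NEC library (7.97 to 9.05), 9.46 in the NEC library (8.71 to 10.3) and 9.11 in the control library (8.56 to 9.70). These 3 intervals overlapped one another.

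Hspd1 (ENSMUSG00000025980.14, chromosome 1, 55077835 to 55088243, minus strand) encodes HSP60, the chaperonin that folds proteins imported into mitochondria. It stood at 72.0 CPM in the PCI34051+NEC library (1096 counts), 38.4 CPM in the NEC library (420 counts) and 95.4 CPM in the control library (1516 counts). The 3 intervals did not overlap, with the NEC library lowest. Hspd1 was 2.49-fold lower in NEC than in control (2.23 to 2.78), 1.88-fold higher in PCI34051+NEC than in NEC (1.68 to 2.11) and 1.32-fold lower in PCI34051+NEC than in control (1.22 to 1.43). Hspe1, which encodes its HSP10 partner from the same promoter region and overlaps Hspd1 by 112 exonic bases on the opposite strand, stood at 23.8, 18.5 and 53.7 CPM in the PCI34051+NEC, NEC and control libraries. The count of Hspd1 per count of Hspe1 was 3.03 in the PCI34051+NEC library (2.69 to 3.42), 2.07 in the NEC library (1.75 to 2.46) and 1.78 in the control library (1.63 to 1.94). The mitochondrially encoded share of counts, 32.4% in the NEC library, was thus at its highest where Hspd1 and Hspe1 were at their lowest, and its part in those levels was not tested.

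Hspb1 (ENSMUSG00000004951.10, chromosome 5, 135887919 to 135889563, plus strand) stood high in the NEC library. The small heat shock protein it encodes binds unfolding proteins and actin and is abundant in muscle. It stood at 6.50 CPM in the PCI34051+NEC library (99 counts), 46.1 CPM in the NEC library (505 counts) and 6.35 CPM in the control library (101 counts). Hspb1 was 7.26-fold higher in NEC than in control (5.85 to 9.08), a log2 fold of 2.68, and 2.78% of measured genes had a higher fold. In PCI34051+NEC it was 7.09-fold lower than in NEC (5.71 to 8.89), while PCI34051+NEC over control gave a ratio of 1.02 (0.768 to 1.36). The transcript is short and rich in GC (930 bases, 61.7%). Once the trend over both was taken out, the log2 folds were 1.67 for NEC over control and -1.60 for PCI34051+NEC over NEC.

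Levels of Hspb1 ran beside the summed level of the smooth muscle markers, though not beside each of them. Per 1000 counts of the 12 smooth muscle markers, Hspb1 had 3.48 counts in the PCI34051+NEC library, 3.30 in the NEC library and 3.04 in the control library. In NEC against control, 10 of the 12 markers were past 2-fold upward and none downward, and 11 were past 2-fold downward in PCI34051+NEC against NEC. Their single NEC over control ratios ran from 1.25 for Synpo2 to 15.7 for Myh11. The pattern was not particular to muscle: of 9 measured enteric neuron and glia markers, 7 were past 2-fold upward in NEC against control and 1 downward. Among these, Uchl1 had a ratio of 7.77 and Ret one of 0.242. The other small heat shock protein genes had fewer counts per 1000 of the smooth muscle markers in the NEC library than in either other library. Hspb8, a partner of the co-chaperone BAG3, had 6.01, 3.42 and 5.44 in the PCI34051+NEC, NEC and control libraries, and Cryab, alpha B crystallin, had 2.81, 1.86 and 4.84. The part of muscle content, or of other cell types, in the level of Hspb1 was not tested.

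**Figure D3:**
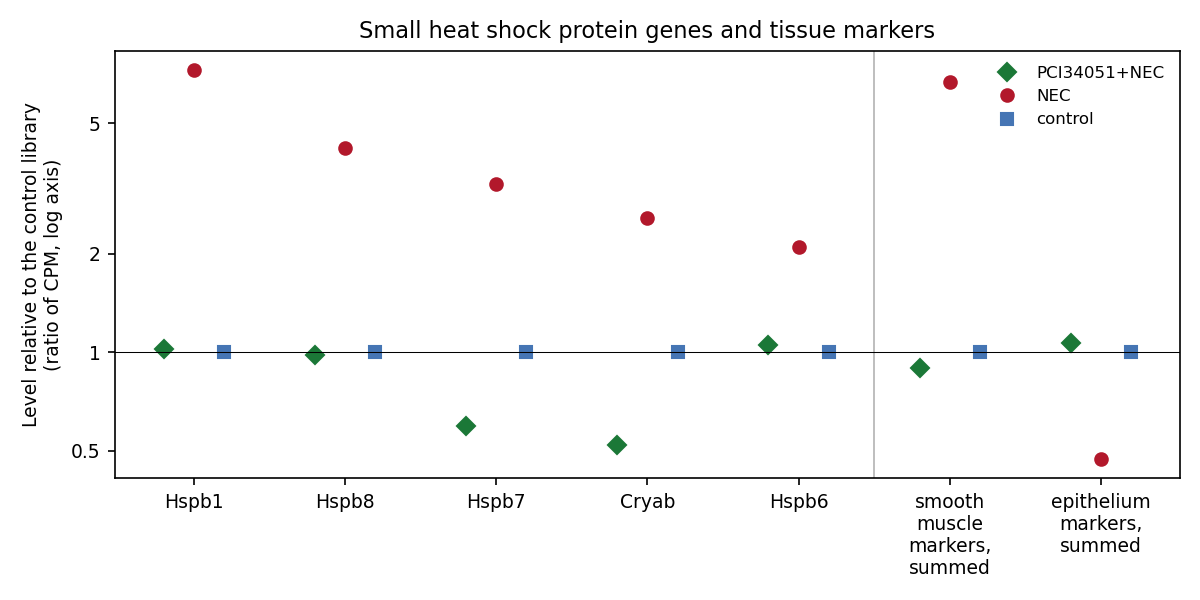
Level of 5 small heat shock protein genes and summed level of smooth muscle and epithelial markers in the PCI34051+NEC, NEC and control libraries, each relative to the control library (ratio of CPM, log axis). Hspb1 and the smooth muscle markers lie near each other in the NEC library, at 46.1 against 6.35 CPM and at 13970 against 2093 CPM in control, while the epithelial sum lies lower, at 3432 against 7257 CPM, with 5 of its 11 markers past 2-fold downward and 3 upward.

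Read across the 10 genes, the counts past 2-fold were set against those of all genes. Between NEC and control, 1 member (Hspb1) was higher and 4 (Rbm3, Hspa1b, Dnajb1 and Hspd1) were lower, where 24.2% of 14627 measured genes were higher, 22.9% lower and 47.1% either. The 5 of 10 members past 2-fold are thus near the share of all genes. The median log2 fold was -0.39 over the members and -0.03 over all measured genes. In PCI34051+NEC against NEC, 1 member (Rbm3) was higher and 1 (Hspb1) lower, where 25.0% of 14410 genes were higher, 25.6% lower and 50.6% either, with medians of 0.46 and 0.01. For PCI34051+NEC against control, none was higher and 1 (Hsph1) was lower, where 6.55% of 13652 genes were higher, 6.55% lower and 13.1% either, with medians of -0.12 and 0.00. Scaled by total counts alone, that last comparison had 4.65% of genes higher and 9.23% lower, around a median of -0.18. The NEC library enters the first 2 comparisons, and the control library the first and the third, so they are not independent.

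**Figure D4:**
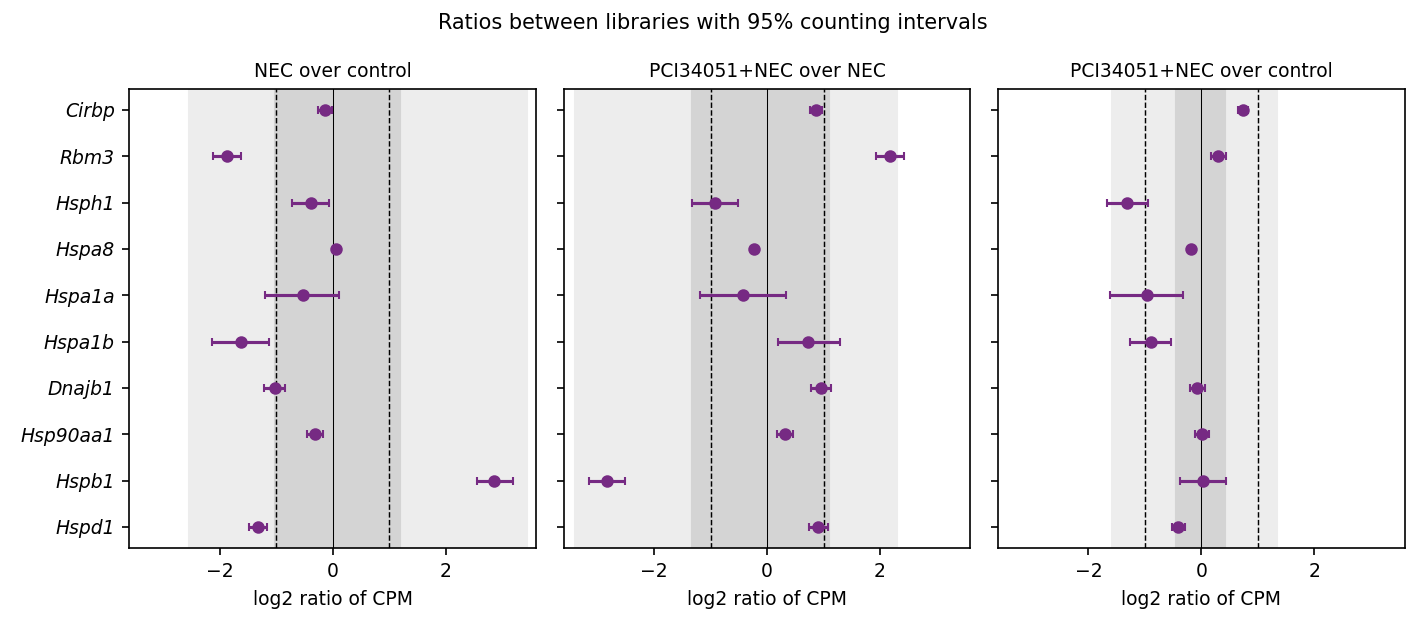
Log2 ratio of CPM between libraries for each member (points) with 95% counting intervals (bars), without a pseudocount. The dark band spans the interquartile range of all measured genes and the light band their percentiles 5 to 95, and dashed lines mark 2-fold. All points lie inside the light band, with Rbm3 and Hspb1 farthest out where the NEC library enters. On the CPM + 1 scale used for the calls, Hspb1 lies outside percentiles 5 to 95 in both comparisons with the NEC library. It is at 2.68 for NEC over control (-2.06 to 2.29) and -2.65 for PCI34051+NEC over NEC (-2.31 to 2.09). Rbm3 lies at the upper edge of the latter range, at 2.09. Hsph1 lies outside for PCI34051+NEC over control, at -1.18 (-1.11 to 1.13).

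Summed over the 8 chaperone genes, the level was 772 CPM in the PCI34051+NEC library (758 to 786), 835 CPM in the NEC library (818 to 852) and 885 CPM in the control library (870 to 900). Hspa8 made up most of it. Without Hspb1 the sums were 766, 788 and 878 CPM. The total was thus lower in both libraries of the model than in the control. Cirbp and Rbm3 together held 223 CPM in the PCI34051+NEC library (215 to 230), 101 CPM in the NEC library (95.1 to 107) and 147 CPM in the control library (142 to 154).

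Per kilobase of transcript, the order of the genes was headed by Hspa8 and Cirbp in each library, at 228 and 120 CPM per kb in the PCI34051+NEC library, 269 and 65.7 in the NEC library and 258 and 72.3 in the control library. Hspb1 was number 7, 3 and 7 of the 10, and Rbm3 number 4, 7 and 6, in the PCI34051+NEC, NEC and control libraries. Hspa1a stood last in each, at 0.709, 0.954 and 1.38 CPM per kb. Neighbours whose intervals overlapped were Rbm3 with Hsp90aa1, Hsp90aa1 with Dnajb1 and Hspa1b with Hsph1 in the PCI34051+NEC library, Hsp90aa1 with Hspd1 and Hspa1b with Hspa1a in the NEC library, and Dnajb1 with Hsp90aa1 and Hspa1b with Hsph1 in the control library.

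The wider chaperone families are read against the shares of all measured genes just given, and against medians of -0.03 for NEC over control, 0.01 for PCI34051+NEC over NEC and 0.00 for PCI34051+NEC over control. Small heat shock protein genes, 6 of them measured, had 4 past 2-fold upward in NEC against control and none downward, with a median log2 fold of 1.41. Besides Hspb1 these were Hspb8 (11.2, 47.8 and 11.4 CPM in the PCI34051+NEC, NEC and control libraries), Hspb7 (3.22, 17.6 and 5.41 CPM) and Cryab (5.26, 25.9 and 10.1 CPM). The same number, 4 of 6, were at least 2-fold lower in PCI34051+NEC than in NEC, with a median of -2.05, and none was 2-fold apart between PCI34051+NEC and control.

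Among 14 DnaJ genes of the A and B classes, 6 were past 2-fold downward and 1 upward in NEC against control, the median being -0.66. Relative to NEC, PCI34051+NEC had 6 higher and none lower, with a median of 0.90, and between PCI34051+NEC and control none was 2-fold apart. Dnajb9, an endoplasmic reticulum co-chaperone of BiP, stood at 114 CPM in the PCI34051+NEC library, 18.1 CPM in the NEC library and 69.6 CPM in the control library. Dnajb11, another of that compartment, stood at 92.7, 35.1 and 122 CPM. Like Dnajb1, both were lowest in the NEC library.

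In the HSP70 family of 11 genes, 3 were past 2-fold upward and 4 downward in NEC against control, the median being 0.01. The PCI34051+NEC library against NEC had 3 higher and 4 lower, with a median of -0.24, and against control 1 lower, Hspa12a, named after its value was seen, at a log2 fold of -1.01. Hspa5, the endoplasmic reticulum chaperone BiP, stood at 277 CPM in the PCI34051+NEC library, 58.5 CPM in the NEC library and 343 CPM in the control library. Hspa12b, a divergent member found in endothelium, stood at 4.73, 22.4 and 4.59 CPM. Hspa1l, a gene of the same cluster as Hspa1a and Hspa1b, stood at 2.63, 14.0 and 2.27 CPM, so that this neighbour was highest in the library in which the summed inducible pair was lowest. In the HSP110 family, with 3 genes measured, 1 was 2-fold lower in NEC than in control, Hyou1 of the endoplasmic reticulum, and in the HSP90 family of 4 genes Hsp90b1 of that compartment stood at 349, 151 and 446 CPM.

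Mitochondrial chaperone and protease genes were mostly lower in NEC than in control, with 7 of 12 past 2-fold downward, 1 upward and a median of -1.07. Against NEC, PCI34051+NEC had 5 higher and 2 lower, with a median of 0.76. Yme1l1, a protease of the inner membrane, stood at 63.1 CPM in the PCI34051+NEC library, 21.4 CPM in the NEC library and 65.6 CPM in the control library. Lonp1, the matrix protease, went against them, at 66.4, 194 and 76.6 CPM. In PCI34051+NEC against control, Hspe1 was the 1 gene of the list at least 2-fold apart, with a log2 fold of -1.14. No gene of the cytosolic chaperonin CCT, which folds actin and tubulin, was 2-fold apart in any comparison, with 7 measured and medians of -0.19 for NEC over control, 0.22 for PCI34051+NEC over NEC and -0.12 for PCI34051+NEC over control.

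HSF1 and its targets did not share one direction. Hsf1 stood at 11.4 CPM in the PCI34051+NEC library (174 counts), 76.2 CPM in the NEC library (834 counts) and 19.8 CPM in the control library (314 counts). Its log2 folds were 1.89 for NEC over control, -2.63 for PCI34051+NEC over NEC and -0.74 for PCI34051+NEC over control. Hsbp1, which encodes a small protein that binds HSF1, stood at 113, 60.6 and 154 CPM. Of 24 measured genes listed as classical HSF1 targets, 8 of them members, 5 lay past 2-fold upward and 7 downward in NEC against control, the median being -0.39. The PCI34051+NEC library had 2 higher and 6 lower against NEC, with a median of 0.17 that was -0.03 once a trend over GC content and length was taken out, and between PCI34051+NEC and control none was higher and 3 were lower, with a median of -0.33. Serpinh1, the collagen chaperone HSP47, stood at 35.4 CPM in the PCI34051+NEC library, 213 CPM in the NEC library and 90.1 CPM in the control library. Beside it, the 8 fibroblast markers, collagens among them, summed to 819, 2880 and 818 CPM, and their part in that level was not tested.

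Co-chaperones of HSP70 and HSP90 were split: of 21, 5 were past 2-fold upward and 3 downward in NEC against control, the median being 0.13. Against NEC, the PCI34051+NEC library had 3 higher and 6 lower, with a median of 0.09. Unc45a, a myosin chaperone, stood at 47.0 CPM in the PCI34051+NEC library, 189 CPM in the NEC library and 53.7 CPM in the control library. Fkbp5, an HSP90 co-chaperone and a known glucocorticoid target, was the 1 gene of the list at least 2-fold higher in PCI34051+NEC than in control, at 471 CPM in the PCI34051+NEC library, 292 CPM in the NEC library and 5.35 CPM in the control library. The 1 gene 2-fold lower was Ppid, a cyclophilin of HSP90 complexes named after its value was seen, with a log2 fold of -1.15.

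Genes related to Cirbp or Rbm3, which themselves differed in pattern, were mixed in direction. Of 7 measured cold shock domain genes, which bind RNA through a fold shared with bacterial cold shock proteins, 3 were past 2-fold upward and 1 downward in NEC against control, the median being 0.90. Against NEC, PCI34051+NEC had 2 higher and 4 lower, with a median of -1.07. With Lin28b, which had 0 counts in the PCI34051+NEC library, set at a floor of 3 counts, that median was -0.81, with 3 lower. Both medians rest on low genes: with a minimum of 5 CPM they were 0.34 for NEC over control and -0.29 for PCI34051+NEC over NEC, with a pseudocount of 4 they were 0.30 and -0.35, and once a trend over GC content and length was taken out they were 0.42 and -0.47. Ybx1, the main member in most tissues, stood at 614 CPM in the PCI34051+NEC library, 192 CPM in the NEC library and 712 CPM in the control library. Its paralog Ybx3 stood at 63.7, 192 and 57.1 CPM. The paralogs thus went opposite ways in the NEC library.

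Relatives and partners of CIRBP and RBM3 were also mixed, with 1 of 7 past 2-fold upward and 2 downward in NEC against control, and 2 upward and 3 downward in PCI34051+NEC against NEC. Rbmx, an X-linked relative, stood at 15.9 CPM in the PCI34051+NEC library, 6.30 CPM in the NEC library and 24.2 CPM in the control library. Clk1, a splicing kinase known to become active at lower body temperature, stood at 135, 318 and 117 CPM. Rtn3, an endoplasmic reticulum protein known as a downstream effector of RBM3 in mouse brain, stood at 338, 140 and 290 CPM, lowest in the NEC library as Rbm3 was. Brown fat, which makes heat in the cold, was checked with 7 markers, which summed to 49.5, 114 and 18.4 CPM in the PCI34051+NEC, NEC and control libraries. The 3 measured ones, Fabp4, Plin1 and Adipoq, which white fat also expresses, were all past 2-fold upward in NEC against control and downward in PCI34051+NEC against NEC. Fabp4 made up most of the sums, at 48.8, 110 and 17.4 CPM, while Plin1 had 0, 20 and 0 counts and Adipoq 0, 14 and 0. The calls of Plin1 and Adipoq thus set few counts against 0, without the floor of 3 counts used for Lin28b. Ucp1, the uncoupling protein that defines brown fat, had 5, 0 and 1 counts, Cidea had 5, 2 and 8, Dio2 had 0, 6 and 7, and Elovl3 had none in any library.

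Over the 3 libraries, the genes nearest to 4 members in their pair of log2 folds over control were picked by distance among 7268 genes at a mean of 20 CPM or more. For Rbm3 they were Aldh3a2, Car13 and Golm1, at distances of 0.0105, 0.0107 and 0.0110. For Hspb1 they were Cacna1e, Svep1 and L1cam, at 0.0473, 0.0569 and 0.0671. For Cirbp they were Usp3, Npepps and Rhob, at 0.0115, 0.0283 and 0.0312, and for Hsph1 they were Pdrg1, Sct and 1700021F05Rik, at 0.00879, 0.0638 and 0.0757. Within 0.25 log2 units lay 157 genes for Rbm3, 54 for Hspb1, 160 for Cirbp and 15 for Hsph1. The nearest of the 9 other members to Rbm3 was Hspd1, at 0.861, while Cirbp lay at 1.72. Hspa8 with Hsp90aa1 (0.410) and Hspa1b with Hspd1 (0.415) were the closest pairs of members.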

How the data were processed

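Raw counts by gene symbol, 1 column a library, were deposited by the authors; the name of their table gives HTSeq as the counter, and per the submitters' processing notes the build is mm10. Reads were paired, of 150 bases, per the labels. The aligner, annotation, strand setting and handling of multiply matching reads were not given in the sources used here. The name of the PCI34051+NEC column did not match its sample's label letter for letter, and it was matched by the part they share. TMM scaling (edgeR 4.0.16 under R 4.3.3) gave factors of 0.923, 1.03 and 1.05 for PCI34051+NEC, NEC and control. Count levels have exact Poisson and ratios exact conditional binomial 95% intervals. Log2 folds used a pseudocount of 1 CPM. Coordinates came from GENCODE M21 (99.7% of symbols matched). The 12 alternatives tried included DESeq2 1.42.0 size factors. The ratios and their intervals were checked on simulated Poisson counts for the NEC and control libraries. That check did not cover TMM scaling, the calls past 2-fold, the list medians or variation between animals. Members and the 13 gene lists were chosen with earlier results of these data known. Besides all members, the text names of each list up to 3 other genes with the largest absolute log2 fold in any comparison, if they reached 5 CPM in the higher of the libraries compared, and for 4 members the 3 nearest genes by Euclidean distance of the folds of NEC and of PCI34051+NEC over control. Python 3.11.15 was used.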

Additional observations from a re-analysis of the deposited data

How the results depend on the processing

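Of 303 refitted member folds, 279 stayed within the counting interval or within a range of the same width centred on the main fold. The other 24 moved beyond both, and none past 2-fold changed sign. Of 330 list medians, 298 stayed within the median counting interval of their genes and 32 moved beyond it. Between PCI34051+NEC and NEC, a 1.5-fold threshold gave 5 members higher and 2 lower, where 35.4% of all measured genes were higher and 35.6% lower. Removal of the GC content and length trend gave 2 members lower (Hsph1 and Hspb1), where 25.1% of genes were lower. The main setting gave 1 each way. Between PCI34051+NEC and control, the 1.5-fold threshold gave 1 member higher and 3 lower, where 16.0% of all measured genes were higher and 16.6% lower. Thinning to the lowest total gave 2 members lower (Hsph1 and Hspa1a), where 6.79% of genes were lower. A pseudocount of 4 gave none, where 7.26% of genes were apart. The main setting gave 0 members higher and 1 lower. Over all genes, 4452 (1.5-fold) and 991 (pseudocount of 4) were apart, against 1788 in the main setting. Scaling by total counts moved the median of all genes to -0.14 (PCI34051+NEC over NEC) and -0.18 (PCI34051+NEC over control), where it split calls into 4.65% higher and 9.23% lower. That setting leaves out the TMM factors, 0.923, 1.03 and 1.05 for PCI34051+NEC, NEC and control, and so shifts all folds of a comparison. Why the factors differ was not tested. No paired analysis was possible because each group has 1 library. Precision is limited for Hspa1a, Hspa1b and Hsph1, and for Hspb1 outside the NEC library, by counts of 31 to 230.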
